A study of Mus musculus with 3 samples.

Results

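Reference genes are the denominators of RT-qPCR, and the 8 described here, *Gapdh*, *Actb*, *Hprt*, *Tbp*, *Ppia*, *Gusb*, *Ywhaz*, and *Sdha*, are among those most often used in mouse cells. They are 8 of the 55421 named genes in the count table. The set was chosen by measured values: the counts of *Gapdh*, the gene that the study used to normalize its own RT-qPCR, had been seen to differ between libraries, and the other 7 are the genes commonly used in its place. The spread of the members is therefore given as a description, without a test result for any of them.

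The RNA came from ALSCs, mouse stem cells established from epiblasts of embryonic day 6.5 gastrulae of ICR females mated with GOF/GFP males. All libraries shared the same culture agents, Activin A and LIF, and poly(A) RNA was sequenced in 3 libraries called replicates 1, 2, and 3. The labels do not say whether these came from separate cultures or lines, so the spread between them may be in part technical. There was 1 condition and no control group, and the table's columns named for AFSCs matched no sample of the series and were not analysed here. Counts on named genes added up to 18088505, 18724038, and 18037342. The labels call the cells embryonic stem cells, and all 6 pluripotency markers averaged over 100 counts and summed to between 1380 and 1443 FPKM, with *Pou5f1* at 647.8 ± 25.3 FPKM (SD, n = 3). The 7 fibroblast markers summed to between 11.4 and 12.9 FPKM, with *Dcn* and *Lum* at 0 counts. Of the 7 markers of naive embryonic stem cells, 2 averaged over 100 counts, and the defining marker *Zfp42* had 3, 3, and 2 counts. The paper calls ALSCs primed stem cells. All 6 primed markers averaged over 100 counts, and they summed to between 313 and 400 FPKM.

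A reference gene is useful when every cell needs its product and the mRNA level changes little with the treatment under study. The products of these 8 genes work in unrelated parts of the cell. GAPDH is a glycolytic enzyme, ACTB a cytoskeletal protein, HPRT an enzyme of purine salvage, TBP the protein that binds the TATA box, PPIA a cyclophilin that helps proteins to fold, GUSB a lysosomal glycosidase, YWHAZ a 14-3-3 adaptor protein, and SDHA a subunit of mitochondrial complex II. Genes with short, abundant mRNAs often have processed pseudogenes, which are copies of the mRNA put back into the genome, and *Gapdh* and *Ppia* are well-known cases.

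The primers with which the study measured *Gapdh* are shown because they fix the part of the mRNA on which every RT-qPCR value was scaled. Both are printed 5′ to 3′ as the study lists them.
Gapdh forward primer: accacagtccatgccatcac
Gapdh reverse primer: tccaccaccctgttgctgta
In the principal transcript Gapdh-201 of GENCODE M21 (genome build GRCm38), which is 1272 bases long with a coding sequence from base 93 to base 1091, the forward primer matched bases 612 to 631 in exon 5 of 7, at chr6:125162689-125162708. The reverse primer matched the complement of bases 1044 to 1063 in exon 7, at chr6:125162063-125162082. The product of 452 bases lies wholly in the coding sequence. The same pair, with no mismatch, was present in annotated transcripts of 28 other genes, and 26 of them give a product of the same length. With up to 2 mismatches in each primer the number was 159 genes. The search covered annotated transcripts only, not the rest of the genome.

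The copy with most counts was the processed pseudogene *Gm13394*, at chr2:28933610-28934609 on the minus strand. Its 1000 annotated bases aligned with bases 93 to 1092 of Gapdh-201 and differed at 1 base, A438C, with positions counted from 1 at the 5′ end of Gapdh-201. The stretch around that base, from base 409 to base 468, is shown because it is the only place where the mRNA of *Gapdh* and this copy can be told apart within those 1000 bases, and the differing base is in capitals.
Gapdh: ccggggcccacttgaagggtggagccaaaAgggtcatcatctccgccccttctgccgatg
Gm13394: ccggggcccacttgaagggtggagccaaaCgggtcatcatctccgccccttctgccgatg
The differing base lies outside the product of the primers, in which *Gapdh* and *Gm13394* had 0 differing bases. *Gm5559* on chromosome 5 and *Gm12070* on chromosome 11 also differed from Gapdh-201 at 1 base each over 1002 bases, T477A and G453A, and had 0 differing bases in the product.

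*Ppia* had a copy of the same kind. The processed pseudogene *Gm10123*, at chr9:96895658-96896147 on the plus strand, was 490 bases long and had 0 differing bases against bases 469 to 958 of Ppia-202, whose coding sequence runs from base 469 to base 960. The first 60 bases of that coding sequence are shown for both.
Ppia: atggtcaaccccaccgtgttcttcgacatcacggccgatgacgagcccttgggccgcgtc
Gm10123: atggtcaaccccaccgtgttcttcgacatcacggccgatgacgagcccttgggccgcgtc
No base in this window separates them, so a read inside it cannot be assigned to either gene by its sequence.

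To see how much of each mRNA is its own, the principal transcript of each member was cut into overlapping words of 50 bases. A word was called unique when no other annotated gene held it on either strand. All words of *Hprt*, *Tbp*, *Gusb*, and *Sdha* were unique (100%). The share was 85.8% for *Actb*, 80.1% for *Ywhaz*, 45.7% for *Ppia*, and 9.57% for *Gapdh*. In the coding sequence of *Gapdh*, 0 of 950 words were unique, and the median word was held by 42 other genes. The unique words lay at the ends: the longest unique stretches of Gapdh-201 ran from base 1 to base 123, which holds the 5′ untranslated region, and from base 1091 to base 1182, just past the coding sequence. Across the primers' product 0 of 403 words were unique.

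**Figure D1:**
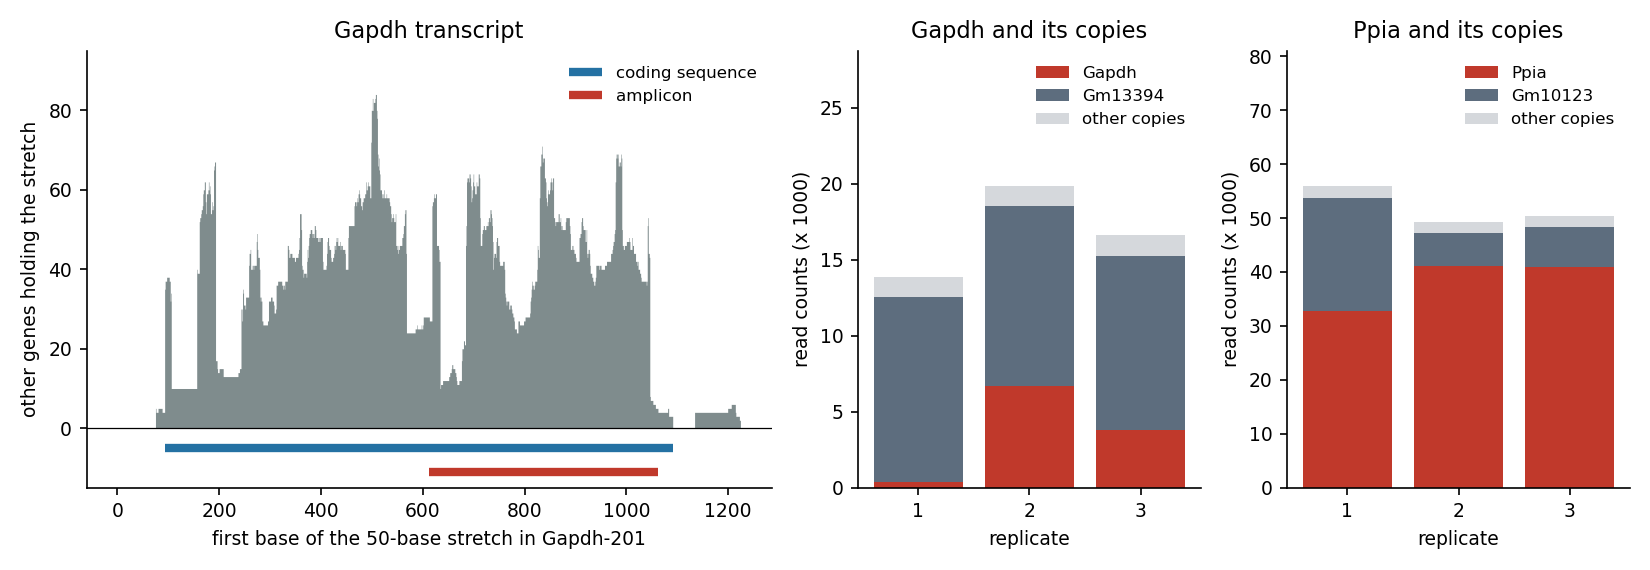
Left, number of other annotated genes that hold each 50-base stretch of the Gapdh-201 transcript, by the position of its first base, with the coding sequence and the RT-qPCR product (amplicon) as bars below the axis; middle and right, read counts on *Gapdh* and *Ppia* (red), on the most counted copy (dark grey), and on all other copies (light grey) in replicates 1, 2, and 3. The coding sequence of *Gapdh* has no unique stretch, *Gm13394* has a similar count in each replicate while that of *Gapdh* goes from 397 to 6697, and *Gm10123* is highest in replicate 1, where *Ppia* is lowest.

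*Gapdh* (chr6:125161715-125166467, minus strand) had 397, 6697, and 3835 counts in replicates 1, 2, and 3. Scaled by edgeR's TMM factors, which correct for library composition, these were 22.7, 349.3, and 210.8 CPM (counts scaled to a common library total). Replicate 1 was far below the others, and replicates 2 and 3 also differed from each other. The highest library was 15.4 times the lowest, the largest such ratio of the 10577 well-counted genes, those averaging 100 counts or more. The next, for the splicing factor gene *Usp39*, was 10.5. The coefficient of variation (CV, the SD over the mean of the CPM) was 84.4%, against 1.66% from counting error alone. On the log2 scale replicate 1 was 3.63 below the mean of replicates 2 and 3. Without replicate 1 the ratio between the remaining libraries was 1.66 and the CV 35.0%, against a median CV of 3.91% for all genes.

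The copies of *Gapdh* were more even than *Gapdh* itself. *Gm13394* had 12174, 11866, and 11421 counts, a ratio of 1.12 between the highest and the lowest library, and replicate 1 was the highest of the 3. *Gm7336* on chromosome 7 had 427, 394, and 428 counts, *Gm5559* had 278, 242, and 320, and *Gm12070* had 197, 203, and 208. In all, 72 genes held at least 10% of the words of *Gapdh* and were taken as its copies, 35 of them with more than 10 counts, and together they had 13488, 13124, and 12776 counts. Of the counts on *Gapdh* and its copies, 2.86%, 33.8%, and 23.1% fell on *Gapdh* in the 3 libraries.

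When *Gapdh* and its copies were summed, the values were 792.6, 1033.9, and 913.2 CPM. Replicate 1 was still the lowest, the ratio was 1.30, and the CV was 13.2%, against 15.4 and 84.4% for *Gapdh* alone. The copies without *Gapdh* had a ratio of 1.12, with replicate 1 the highest. In raw counts, not scaled to library size, replicate 1 held 364 more on the copies than replicate 2 and 6300 fewer on *Gapdh*. Replicate 2 was the larger library, so scaling widens the difference for the copies and narrows that for *Gapdh*. Per length of all annotated exons, *Gm13394* was at 646.6 ± 22.8 FPKM (SD, n = 3) and *Gapdh* at 47.8 ± 40.7 FPKM. These lengths are 1000 and 4133 bases, and with the 1272 bases of Gapdh-201 *Gapdh* was at 155.2 ± 132.4 FPKM. How many of the counts on *Gm13394* came from the mRNA of *Gapdh* was not tested, so the values do not rank the 2 genes. The 28 genes that hold both primers exactly had 13245, 12903, and 12570 counts together. The sources used here do not give how reads with several matching places were counted, and the part of that step in the spread and level of *Gapdh* was not tested. The gene *Iffo1*, which overlaps *Gapdh* on the other strand, had 143, 157, and 125 counts.

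The other enzymes of glycolysis, the pathway in which GAPDH works, are given as a description only. The ratio of *Gapdh* was the largest of all well-counted genes, so none of them could have been as uneven. Of 14 glycolysis enzymes, all well-counted, in 3 the highest library was at least 25% above the lowest (called at least 25% apart below), *Hk1* (ratio 1.32), *Hk2* (1.33), and *Pfkp* (1.68), and the median ratio was 1.15. Replicate 1 was the highest for 8 of them and the lowest for 5. Over all 10577 genes 44.8% were at least that far apart, and the median ratio was 1.23. The share of all genes that were highest or lowest in replicate 1 was not computed. Nothing is therefore read from such counts here or for the lists below, and replicate 1 ran higher on short genes in general, as described below. *Pkm*, the enzyme that makes pyruvate, had 84018, 90408, and 84180 counts, a ratio of 1.04. *Ldha*, which turns pyruvate into lactate, had 56127, 52635, and 50154 counts. *Pgk1*, the enzyme just after GAPDH, had 36065, 33916, and 32224 counts, highest in replicate 1. *Pgk1* and *Eno1* also have few unique words (32.0% and 27.8%), and their ratios were 1.16 and 1.14.

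*Actb* (chr5:142903115-142906754, minus strand) had 24587, 20718, and 20718 counts, which are 1403.5, 1080.7, and 1139.0 CPM. Replicate 1 was the highest, and the other 2 libraries lay close together. The ratio was 1.30 and the CV 14.3%, and 65.6% of the 10577 genes had a lower CV. Its nearest relative *Actg1*, the other cytoplasmic actin, had 35247, 35747, and 35163 counts with a ratio of 1.08. Of the 5 well-counted actins and actin-binding proteins, 3 were at least 25% apart (all genes 44.8%), and replicate 1 was the highest in all 5. *Tmsb10*, a thymosin that binds actin monomers, was at 516.7 ± 67.2 FPKM, and *Pfn1*, the gene of profilin, at 494.4 ± 49.6 FPKM. The muscle actins *Acta1*, *Acta2*, *Actc1*, and *Actg2* had at most 20 counts in any library.

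*Hprt* (chrX:52988137-53021659, plus strand) had 3564, 2953, and 3096 counts, or 203.4, 154.0, and 170.2 CPM. Again replicate 1 was the highest, with a ratio of 1.32 and a CV of 14.3%. *Actb* and *Hprt* kept nearly the same proportion: the log2 ratio of *Actb* to *Hprt* was 2.79, 2.81, and 2.74, and its SD of 0.035 was the smallest of all 28 pairs of members. *Aprt*, which salvages adenine as HPRT salvages guanine and hypoxanthine, had 3208, 2625, and 2523 counts and a ratio of 1.34. Of the 6 other purine salvage genes 2 were at least 25% apart (all genes 44.8%), *Aprt* and *Pnp* (ratio 1.5), and 4 were highest in replicate 1. *Prps1*, which makes the sugar phosphate that both salvage enzymes use, was at 89.4 ± 2.0 FPKM, and its relative *Prps2* at 34.8 ± 2.2 FPKM.

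*Ppia* (chr11:6415443-6419817, plus strand) had the most counts of the set, 32681, 41185, and 40914, or 1865.5, 2148.2, and 2249.3 CPM. Replicate 1 was the lowest, the ratio was 1.21, and the CV was 9.53%. Its copy *Gm10123* went the other way, with 20986, 6124, and 7489 counts. The ratio of 3.75 for *Gm10123* was the 12th largest of the 10577 genes. *Ppia* and its 11 copies together had 55859, 49339, and 50458 counts, and in the sum replicate 1 was the highest instead of the lowest, with a ratio of 1.24. The 11 were taken by shared words alone and include the protein-coding gene *Gclm*, with 1752, 1716, and 1701 counts. Its locus holds the *Ppia* pseudogene *Gm6061*, so the sum may include counts of the mRNA of *Gclm* itself. The share of these counts that fell on *Ppia* was 58.5%, 83.5%, and 81.1%. With only the 3 copies that held at least 25% of its words, which leaves out *Gclm*, the share was 60.58%, 86.65%, and 84.11%. Those 3 copies together had a ratio of 3.67. For both *Gapdh* and *Ppia* the share at the parent gene was lowest in replicate 1. The copies together were highest in replicate 1 in both families, with a ratio of 3.11 for those of *Ppia* and 1.12 for those of *Gapdh*. Replicate 1 ran higher on short genes in general, as described below. *Gm13394* with 1000 bases and *Gm10123* with 490 fall in the shortest group, whose median log2 difference was 0.39. Being highest in replicate 1 is thus not particular to these copies, and the reason for the shares was not tested.

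Of the 8 other cyclophilins, 5 were at least 25% apart (all genes 44.8%), and 6 were highest in replicate 1, the library in which *Ppia* was lowest. *Ppid*, *Ppil1*, and *Ppie* were the most abundant, at 49.7 ± 5.3, 46.7 ± 4.4, and 46.0 ± 6.3 FPKM. *Ppib*, the cyclophilin of the endoplasmic reticulum, had 1543, 1539, and 1569 counts and a ratio of 1.1.

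*Tbp* (chr17:15499888-15528379, plus strand) had 930, 942, and 1047 counts, or 53.1, 49.1, and 57.6 CPM. Replicate 3 was the highest, the ratio was 1.17, and the CV was 7.91%, of which counting error alone gives 3.21%. *Tbpl1*, a relative of TBP that serves other promoters, had 814, 838, and 773 counts and a ratio of 1.09, and the oocyte relative *Tbpl2* had 0 counts in every library. Of 13 well-counted TBP-associated factors and relatives, 7 were at least 25% apart (all genes 44.8%), with replicate 1 the highest in 6 and the lowest in 5. *Taf7* and *Taf10* were the most abundant, at 35.8 ± 4.7 and 35.4 ± 2.9 FPKM, followed by *Taf2* at 14.3 ± 2.2 FPKM. The gene *Pdcd2*, which overlaps *Tbp* on the other strand, had 0 counts.

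*Gusb* (chr5:129989011-130003049, minus strand) was the member with the fewest counts apart from *Gapdh* in replicate 1, with 635, 638, and 593, or 36.3, 33.3, and 32.6 CPM. The ratio was 1.11. The CV of 5.70% was little above the 4.01% from counting error alone. Of 8 other well-counted lysosomal glycosidases, 2 were at least 25% apart (all genes 44.8%), *Hexa* (1.28) and *Gla* (1.34). *Gaa*, which breaks down glycogen in lysosomes, was at 13.7 ± 1.3 FPKM, and *Hexa* at 13.3 ± 1.4 FPKM.

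*Ywhaz* (chr15:36770770-36796929, minus strand) had 8525, 8961, and 8845 counts, or 486.6, 467.4, and 486.3 CPM. The ratio was 1.04, and the CV was 2.29% with 1.07% from counting error. No library stood out. Its processed pseudogene *Gm4202* had 343, 542, and 494 counts, and the sum of both had a ratio of 1.04 as well. Of the 5 other well-counted 14-3-3 genes, 0 were at least 25% apart (all genes 44.8%). *Ywhae*, the most abundant of them, had 28754, 26442, and 26398 counts with a ratio of 1.19. The ratios of *Ywhaq*, *Ywhag*, and *Ywhab* were 1.16, 1.14, and 1.06.

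*Sdha* (chr13:74322254-74350280, minus strand) had 5568, 6169, and 5714 counts, or 317.8, 321.8, and 314.1 CPM. With TMM scaling of all 3 libraries it had the smallest spread of the set, with a ratio of 1.02 and a CV of 1.2%, below the 1.31% that counting error alone gives. Only 1.56% of the 10577 genes had a lower CV. *Ywhaz* was more even than *Sdha* with the total count (1.04 against 1.07) and without replicate 2 (1.001 against 1.012). The same held with the trends described below removed (1.023 against 1.044). Without replicate 1 *Gusb* was more even (1.021 against 1.024). The other subunits of complex II were less even. *Sdhb* had 2960, 2440, and 2352 counts, *Sdhc* 2176, 1896, and 2023, and *Sdhd* 3857, 3219, and 3300. All 5 other genes of the complex, its assembly factors *Sdhaf1* and *Sdhaf2* included, were at least 25% apart (all genes 44.8%). They were highest in replicate 1, with a median ratio of 1.33.

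**Figure D2:**
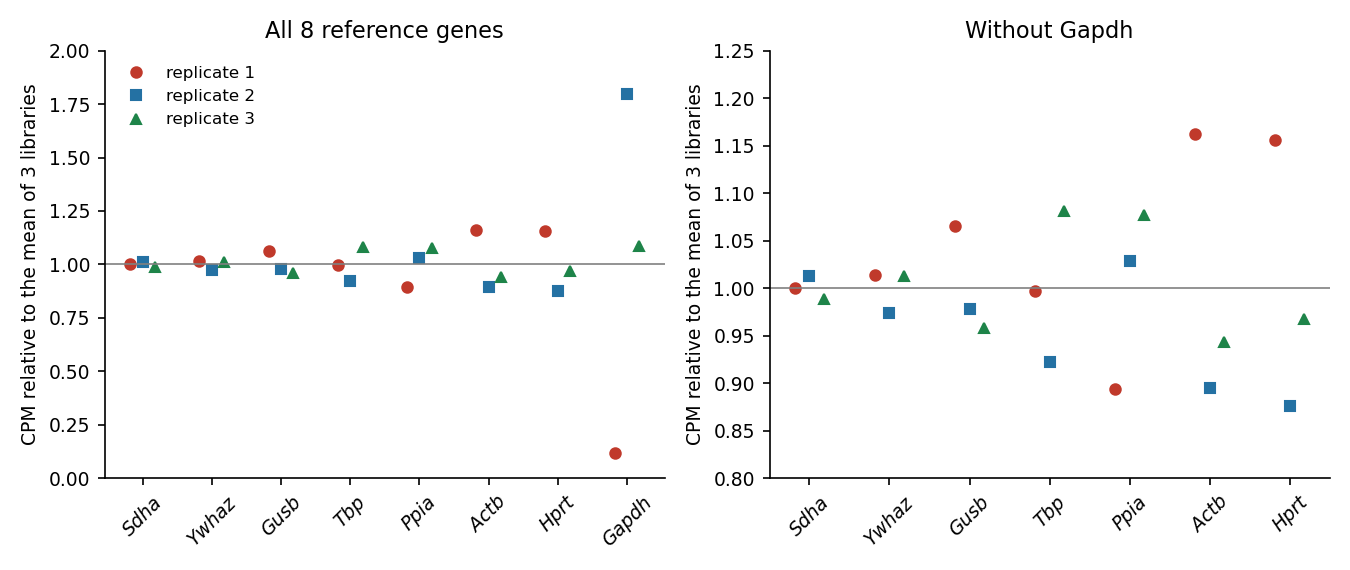
TMM-scaled CPM of each reference gene in replicates 1, 2, and 3 divided by the gene's mean over the 3 libraries, with genes ordered by CV; the left panel shows all 8 genes and the right panel the same values without *Gapdh* on a narrower axis. *Gapdh* in replicate 1 stands far below every other point, and among the other 7 genes *Actb* and *Hprt* are highest and *Ppia* lowest in replicate 1.

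Across the set, 3 of 8 members (*Gapdh*, *Actb*, and *Hprt*) were at least 25% apart, against 44.8% of all well-counted genes, and nothing is read from this count because the spread served to choose the set. Without replicate 1, and likewise without replicate 2, *Gapdh* alone was that far apart. Scaled by the total count, the members past 25% were *Gapdh* and *Ppia* (1.26) instead, with *Hprt* at 1.249 and *Actb* at 1.23. The median CV of the members was 8.72%, beside 10.8% over all genes, and without replicate 1 the values were 3.48% and 3.91%. A chi-square test of each gene's counts against the TMM library sizes, which allows for counting error only, called 47.2% of 16944 genes with at least 10 counts in total, and 66.9% of the 10577 well-counted genes, at an adjusted p under 0.05. Without replicate 1 the number of genes called went from 8003 to 1302. The biological coefficient of variation over all genes, from edgeR's common dispersion, was 0.149, and 0.0525 without replicate 1.

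**Figure D3:**
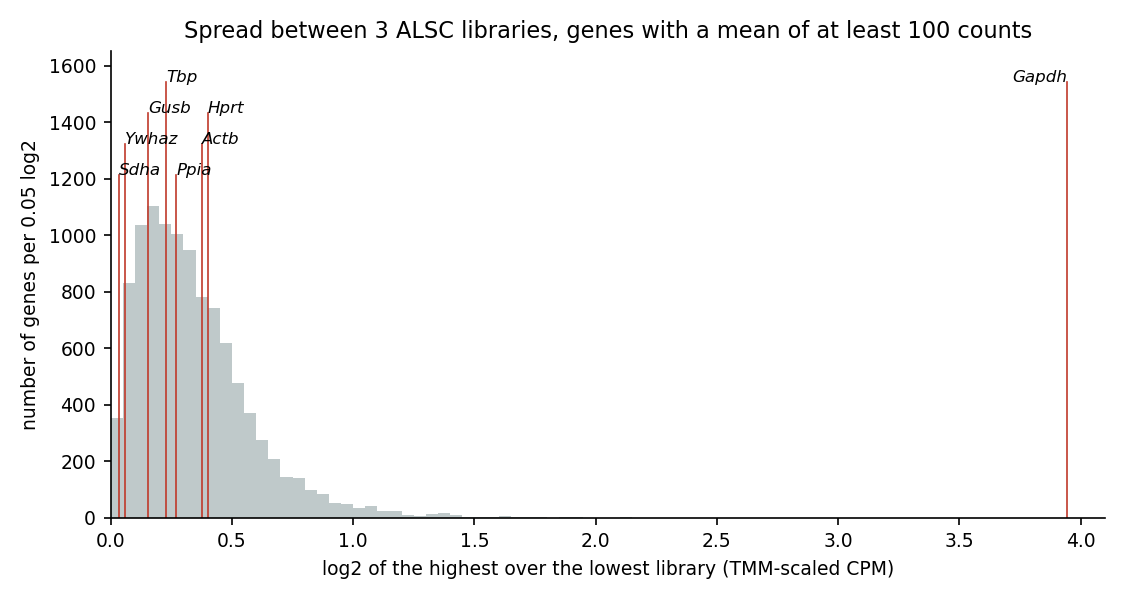
Histogram of the log2 ratio of the highest to the lowest of the 3 libraries (TMM-scaled CPM) of the 10577 genes that averaged 100 counts or more, in bins of 0.05, with red lines at the 8 reference genes. *Sdha* and *Ywhaz* are at the left end of the distribution, *Gusb*, *Tbp*, *Ppia*, *Actb*, and *Hprt* within its bulk, and *Gapdh* at a ratio of 15.4 beyond all other genes.

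Replicate 1 had fewer counts on long genes than the other 2 libraries. In 20 groups of genes of rising length, the median log2 difference of replicate 1 from the mean of replicates 2 and 3 went from 0.39 in the shortest to -0.53 in the longest. *Hprt*, the shortest member at 1289 bases, was in a group with a median of 0.34, and its own difference was 0.33. *Actb*, with 2679 bases, was at 0.34 in a group with a median of 0.17. *Gapdh*, *Ywhaz*, and *Sdha* shared 1 group with a median of 0.0035, and their own differences were -3.63, 0.029, and -0.0005. *Tbp* was in the group of the longest genes but was at -0.007. After the trends on length and GC content were removed, the ratio of *Hprt* went from 1.32 to 1.11 and that of *Actb* from 1.30 to 1.16. That of *Tbp* went from 1.17 to 1.51, and that of *Gapdh* was 15.1. The groups used the length of all annotated exons, which can be far from that of the mRNA. For *Tbp* it was 13576 bases against 1891 in the principal transcript, for *Gapdh* 4133 against 1272, and for *Ppia* 3508 against 1170. The ratio of 1.51 for *Tbp* arose with the removal of the trends and depends on that length.

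Ratios between members within a library do not depend on how libraries are scaled. For each member, M is the mean over the other members of the SD of the log2 ratio across the 3 libraries, the measure on which the geNorm method ranks reference genes, with lower values for more even genes. *Gapdh* had the highest value at 2.16, and the other 7 lay between 0.407 (*Ywhaz*) and 0.484 (*Hprt*). The SD of the 7 pairs with *Gapdh* ran from 1.97 to 2.30, and that of the 21 pairs without it from 0.035 to 0.33. In a panel without *Gapdh*, *Ywhaz* had the lowest M (0.121), followed by *Gusb* (0.133), *Sdha* (0.137), and *Tbp* (0.156). *Actb* and *Hprt* both had 0.1815, and *Ppia* had the highest at 0.223. *Ppia* against *Actb* was the least even of these pairs, with log2 ratios of -0.41, -0.99, and -0.98. The mean M of the 8 members was 0.660, and 0.162 for the 7 without *Gapdh*. With replicate 1 left out, the mean M of the 8 was 0.1999.

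Levels per length were computed as FPKM, from the counts, the total on named genes, and a length in bases. With all annotated exons as length, *Ppia* was the highest at 596.2 ± 71.0 FPKM (SD, n = 3), followed by *Actb* at 449.7 ± 50.6, *Hprt* at 136.1 ± 15.5, *Ywhaz* at 116.6 ± 2.3, and *Sdha* at 77.1 ± 2.6 FPKM. *Gapdh* came next at 47.8 ± 40.7, then *Gusb* at 7.48 ± 0.25, and *Tbp* was the lowest at 3.92 ± 0.31 FPKM. In this order only *Gapdh* overlapped its neighbours, *Sdha* above and *Gusb* below: its libraries ran from 5.31 to 86.5 FPKM, and its mean was 69.0 without replicate 1 and 28.4 without replicate 2. The order depended on the length used. With the length of the principal transcript, *Ppia* was at 1787.6 ± 212.8, *Actb* at 627.5 ± 70.5, *Gapdh* at 155.2 ± 132.4, *Ywhaz* at 146.0 ± 2.9, *Hprt* at 136.1 ± 15.5, and *Sdha* at 109.7 ± 3.8 FPKM. *Tbp* then stood at 28.2 ± 2.2, above *Gusb* at 12.7 ± 0.42 FPKM, because the annotated exons of *Tbp* add up to 13576 bases and its principal transcript to 1891. On that scale *Gapdh* and *Ywhaz*, and *Ywhaz* and *Hprt*, overlapped between libraries, and the other neighbours did not. On both scales the level of *Gapdh* rests only on counts at the gene itself. These were 2.86%, 33.8%, and 23.1% of the counts on *Gapdh* and its copies in replicates 1, 2, and 3, so its place in the order is uncertain.

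**Figure D4:**
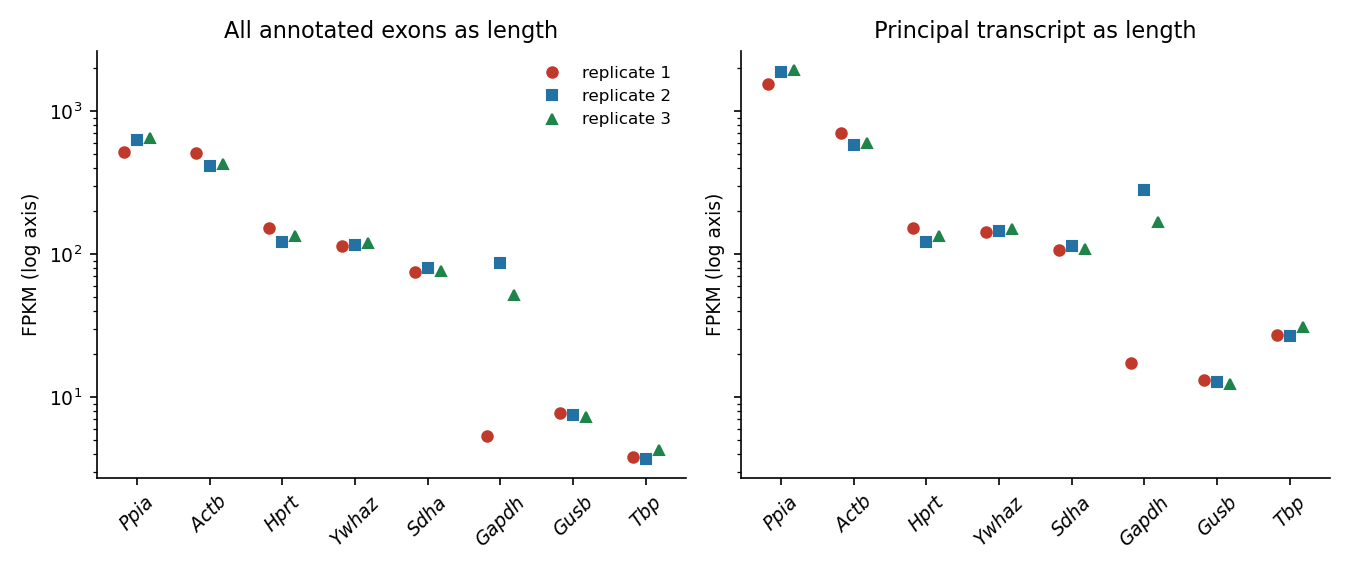
FPKM of the 8 reference genes in replicates 1, 2, and 3 on log axes, with the length of all annotated exons on the left and that of the principal transcript on the right. *Ppia* and *Actb* are the highest on both scales, *Gapdh* is the only gene whose libraries lie far apart, and *Tbp* and *Gusb* change places between the scales.

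Another 25 genes used as references served as a comparison. Of these, 10 were at least 25% apart (all genes 44.8%), with a median CV of 8.92%, and 18 were highest in replicate 1. *Nono*, which codes for a nuclear RNA-binding protein, had the lowest CV at 2.06%, followed by *Canx*, the gene of the chaperone calnexin, at 2.08% and the corepressor gene *Ctbp1* at 3.07%. The highest were *Polr2a*, the largest subunit of RNA polymerase II, at 35.7%, *B2m* at 21.6%, and the ribosomal protein gene *Rpl19* at 20.7%. *Polr2a* had 2572, 6015, and 5036 counts, lowest in replicate 1 like *Gapdh*, with a ratio of 2.14. All of its words are unique (100%), and its principal transcript has 6740 bases. The reason for its low count in replicate 1 was not tested. *Eef1a1*, the translation elongation factor, was the most abundant at 4492.9 ± 402.1 FPKM, followed by *Rpl19* at 1793.3 ± 316.5 and *Rplp0* at 1543.1 ± 208.5 FPKM. *Rps18* and *Rpl19*, with 13.3% and 20.7% unique words, had ratios of 1.33 and 1.46. Of the 46 members, other reference genes, and glycolysis enzymes, the 3 with less than 25% unique words were *Gapdh*, *Rpl19*, and *Rps18*, with a median ratio of 1.46. The 7 genes from 25% to 50%, the 5 from 50% to 75%, and the 9 from 75% to 95% had medians of 1.21, 1.05, and 1.21. The 22 with at least 95% had a median of 1.14 and reached 2.14. The group under 25% has only 3 genes and includes *Gapdh*, whose spread served to choose the set. Nothing is therefore read from the order of these medians, and a link between the ratio and the unique share was not tested.

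Of 459 protein-coding genes averaging 100 FPKM or more, the 5 with the lowest CV were *Pabpc1* (0.172%), *Eif3b* (0.603%), *Mcm3* (0.787%), *Ccnb1* (0.791%), and *Gnb1* (1.04%). Counting error alone gives 0.612% for *Pabpc1* and 1.03% for *Gnb1*. These genes were picked for their low CV, which for *Pabpc1* is below counting error. Among the genes of the same 459 whose pattern over the 3 libraries was nearest to that of *Gapdh* were *Fasn*, *Prpf8*, *Nedd4*, and *Acly*, at distances of 2.34, 2.39, 2.55, and 2.59 on the centred log2 scale. The nearest, *Fasn*, the gene of fatty acid synthase, had 35670, 68390, and 62101 counts and a ratio of 1.75. *Gapdh* itself averaged below 100 FPKM. Among all well-counted protein-coding genes, a comparison added after the values were seen, *Pdpr* and *Arvcf* were the nearest, at distances of 1.46 and 1.47. *Pdpr* had 256, 1051, and 982 counts (ratio 3.75), and *Arvcf* had 43, 204, and 121 (ratio 4.34).

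The study scaled its RT-qPCR values on *Gapdh*, and here the counts of its target genes were divided by the counts of each reference in turn. Of the 30 target genes of its primer list, 18 were well-counted. With TMM scaling 8 of the 18 were at least 25% apart (all genes 44.8%), with ratios from 1.04 to 1.48, and without replicate 1 it was 1 of 18. Divided by the counts of *Gapdh*, the ratios ran from 10.43 to 20.98. This restates the spread that chose the set and is no result about the targets. Every target was shifted by the same amounts, 2.39 up in replicate 1 and 1.56 and 0.83 down in replicates 2 and 3 on the log2 scale. *Pou5f1*, the gene of OCT4, had 27507, 26471, and 25866 counts, a ratio of 1.14 with TMM and 17.5 on *Gapdh*. *Lefty1*, an inhibitor of Nodal, went from 1.22 to a ratio of 17.4 and *Dnmt3b*, a DNA methyltransferase, from 1.27 to 12.1. *Socs3*, a target of LIF signalling, had 1710, 1993, and 1847 counts, a ratio of 1.07 with TMM and 14.5 on *Gapdh*.

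The other references moved the targets far less. On *Ywhaz*, *Sdha*, *Gusb*, or *Ppia* 8 of the 18 targets were at least 25% apart, the same number as with TMM but not always the same targets. On *Ywhaz*, *Nanog* was at 1.24 and *Tcf7l1* at 1.29, against 1.29 and 1.24 with TMM. An equal number does not mean an equal shift. On the log2 scale the shift ranged over 0.058 on *Ywhaz*, 0.23 on *Tbp*, and 0.27 on *Ppia*. The number of targets at least 25% apart was 12 on *Tbp*, 13 on *Actb*, and 14 on *Hprt*. On the geometric mean of all 8 members it was 11, with a shift that ranged over 0.39 on the log2 scale, and on the mean of the 7 without *Gapdh* it was 9, with a range of 0.12. On the sum of *Gapdh* and its copies it was 9, with a range of 0.38 between libraries and ratios from 1.05 to 1.78. Of these targets, only *Nanog* and *Krt18* were also at least 25% apart with TMM. *Pou5f1* went from 1.14 with TMM to 1.48, and *Dnmt1* from 1.42 to 1.21. The count on the *Gapdh* gene need not be the quantity that its primers measure, because the primers also match the copies listed above. Whether those copies are transcribed was not tested, and the RT-qPCR values themselves were not analysed here.

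**Figure D5:**
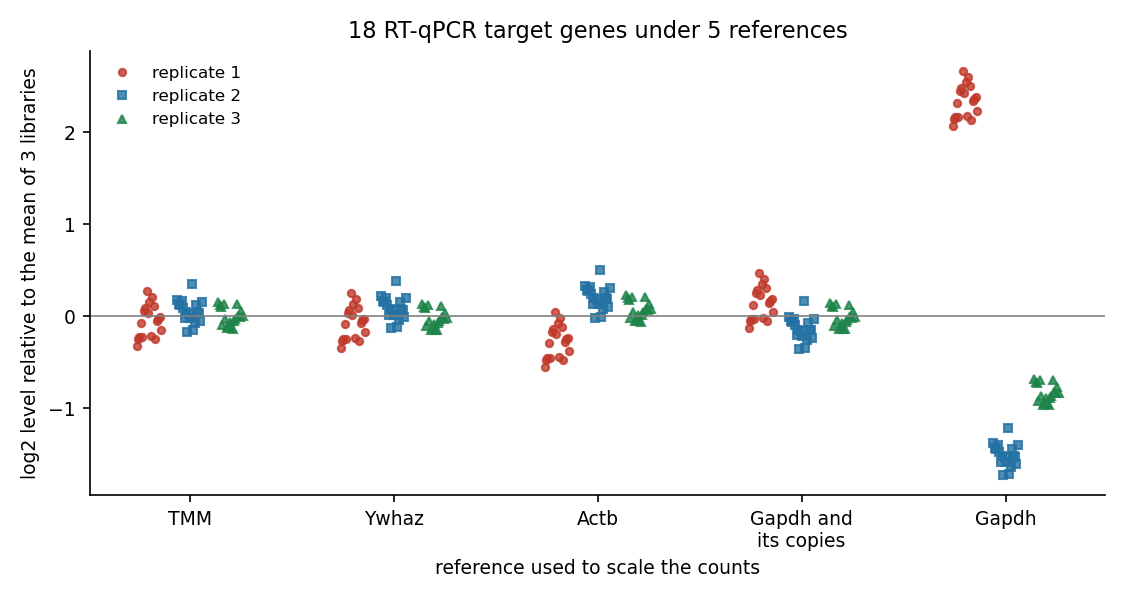
log2 level of the 18 well-counted RT-qPCR target genes in replicates 1, 2, and 3, relative to each gene's mean over the 3 libraries, after scaling by TMM, *Ywhaz*, *Actb*, the sum of *Gapdh* and its copies, or *Gapdh* alone; each point is 1 gene. With *Gapdh* alone all targets sit 2.06 to 2.66 above their mean in replicate 1, and with the other 4 scalings no point lies further than 0.55 from it.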

How the data were processed

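Poly(A) RNA of 3 ALSC libraries was sequenced. Reads were paired-end and aligned to GRCm38 according to the paper, and the submitters' processing notes name HISAT2 2.0.5. The authors deposited raw read counts per gene, with gene length and position. The counting program and its treatment of strand or of reads with several matching places are not given in the sources used here. Of 55738 rows, 317 without a gene name (0.165% to 0.182% of counts) were left out, and 3 columns that match no sample were not used.

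Counts were scaled by TMM (edgeR 4.0.16, R 4.3.3), with DESeq2 1.42.0 size factors as an alternative. FPKM used the total on named genes and the table's length, which equals the union of exons in GENCODE M21 for all 8 members. Sequence came from GENCODE M21 transcripts (99.5% of named genes matched by ID), with the lowest-numbered APPRIS principal transcript per gene. Words had 50 bases, and copies held at least 10% of a member's words on the same strand without overlapping it. Of 230 rows whose symbol is not unique, the one with more counts was used for a listed gene. Trends on GC content and length were taken as the medians of 20 groups each. Chi-square p-values were adjusted by the Benjamini-Hochberg method, and the dispersion and chi-square steps were tested on simulated data. Counting errors do not allow for duplicate reads. Python 3.11.15 was used with pandas 2.3.3, NumPy 2.4.6, matplotlib 3.10.9, and SciPy 1.17.1.

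The members and lists were chosen with earlier results of these data known. Named are all members, their nearest relatives, the 3 most abundant genes of the lists, the other reference genes with the 3 lowest and 3 highest CVs, the 5 genes with the lowest CV, and the 5 most like *Gapdh*. Of these, 2 genes are not reported here. Genes at least 25% apart within a list, copies, overlapping genes, *Pgk1* and *Eno1* beside their unique words, *Rps18*, *Socs3*, *Pdpr*, *Arvcf*, and *Usp39* were named after their values were seen.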

Additional observations from a re-analysis of the deposited data

How the results depend on the processing

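No paired analysis was possible because all libraries belong to 1 condition. DESeq2 size factors, the total count, and removal of the length and GC trends kept the number of members at least 25% apart and the median CV within 1.5 times of their values. The levels stayed within 1 SD with TMM, DESeq2, or a total without mitochondrial genes. With the total count or without the trends 2 members were at least 25% apart, *Gapdh* with *Ppia* and *Gapdh* with *Tbp*. Left out in turn, the replicates gave 1302 to 7490 genes called by the chi-square test, 1 to 3 members and 1 to 7 RT-qPCR targets at least 25% apart, a median CV of the members of 3.48% to 10.04%, a mean M of 0.1999 to 0.854, and a biological coefficient of variation of 0.0525 to 0.188. In each of these ranges the lowest value is without replicate 1, and for the members at least 25% apart also without replicate 2. At 10% apart 6 members were past the threshold and at 50% 1. The mean M was 0.162 without *Gapdh*, 0.309 over members and other reference genes, and, chosen after seeing the data, 0.172 with each member summed with its copies. Targets at least 25% apart numbered 18 scaled on *Gapdh*, 13 on *Actb*, 14 on *Hprt*, and 13 of 24 with TMM and a minimum mean of 10 counts. Also chosen after seeing the data, the length of the principal transcript moved the mean level to 155.2 FPKM for *Gapdh*, 627.5 for *Actb*, 28.2 for *Tbp*, 1787.6 for *Ppia*, 12.7 for *Gusb*, 146.0 for *Ywhaz*, and 109.7 for *Sdha*. Depth limits *Gusb* and *Tbp* most, at a counting error of 4.01% and 3.21%.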
